A study of Mus musculus with 10 samples.

Results

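This report describes 10 genes of macrophage fusion and giant cells in adipocyte precursors (APs) cultured with or without the type 2 cytokine IL-4. The 10 genes, Dcstamp, Ocstamp, Atp6v0d2, Acp5, Cd200r1, Cd44, Cd47, Sirpa, Cd9 and Cd81, were taken by symbol from the 18384 genes listed in the mRNA-seq libraries, and all 10 were found. The APs came from subcutaneous white adipose tissue of C57BL/6J mice, where cells positive for CD45 or CD31 had been removed by magnetic sorting before SCA-1-positive cells were kept. Cultures labelled control were compared with cultures incubated with IL-4, and both were harvested on day 4, with 3 libraries a group (control replicates 1 to 3 and IL-4 replicates 4 to 6). No genetic change was made in either group, and neither the age of the mice nor the number of animals behind a culture is used here. The submitters call the replicates biological.

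Multinucleated giant cells form when macrophages or their precursors join their plasma membranes. Osteoclasts, the bone-resorbing cells, arise in this way under RANKL, and IL-4 is a long-known inducer of macrophage fusion in culture, acting through its receptor and the transcription factor STAT6. The set holds membrane proteins needed for the joining itself, a proton pump subunit and an acid phosphatase that giant cells carry, receptor and ligand pairs that control contact between macrophages, and tetraspanins, small membrane proteins that organise other proteins and hold fusion in check. The files measure mRNA in whole cultures, so neither fusion nor nuclei per cell was measured. In such bulk samples, fewer cells of a type and less RNA per cell cannot be told apart.

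IL-4 cultures held more mRNA of the fusion gene Ocstamp, the proton pump gene Atp6v0d2 and the phosphatase gene Acp5, by 8.77-fold to 19.3-fold. Cd47 and the tetraspanin Cd81 were also higher, by 2.09-fold and 1.84-fold, and the CD47 receptor Sirpa was lower. The test was edgeR's quasi-likelihood test, adjusted by Benjamini and Hochberg's method over 14009 genes, and a gene was called at an adjusted p under 0.05. Of the 9 members tested, 7 were called, where 37.4% of all genes were. By direction, 6 were higher, where 19.0% of all genes were. Sirpa was the 1 member that was lower, where 18.4% of all genes were. Beyond a log2 fold change of 1 (a doubling), 4 members were higher, against 5.77% of all genes, and 0 were lower, against 5.26%. Cd44 and Cd9 were not called, and Dcstamp had too few reads for the test. Ocstamp, counted among the higher members, passed the filter on low counts through its IL-4 libraries alone. The groups did not overlap in normalized counts for 7 of the 9 tested members, 6 with every IL-4 library higher and 1 with every IL-4 library lower, where 25.2% and 25.3% of all genes were so placed (50.4% in either direction). The median log2 fold change was 0.88 over the 9 members and 0.0026 over all genes tested.

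**Figure D1:**
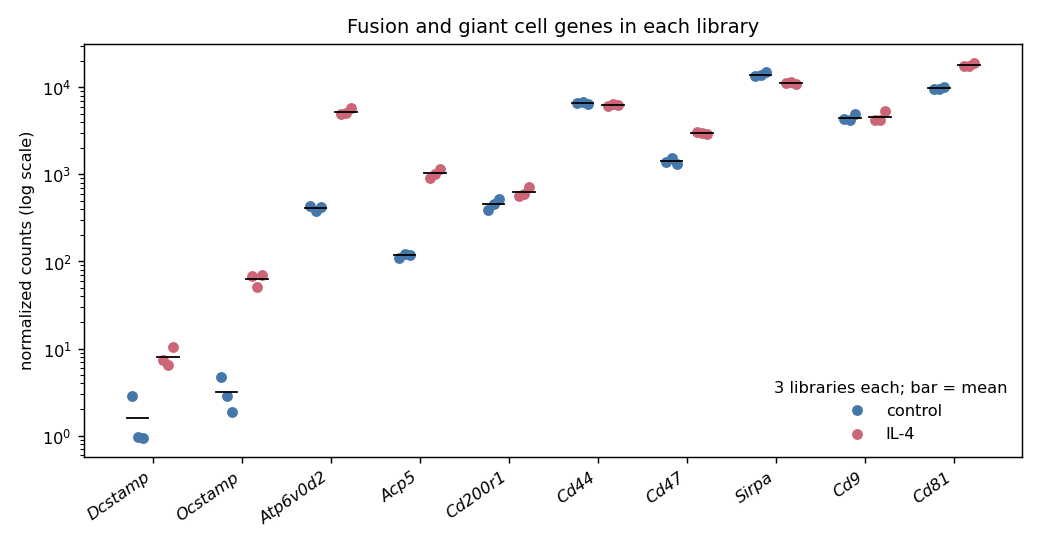
Normalized counts (log scale) of the 10 genes in each of the 3 control and 3 IL-4 libraries, with a bar at the mean of each group. Ocstamp, Atp6v0d2 and Acp5 sit far apart between the groups, while the groups of Cd44 and Cd9 overlap.

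Depth was even, at 28526779 to 28674597 counts a library in control and 28914008 to 29057784 with IL-4. The top 10 genes held 9.14% to 9.59% of a control library and 13.8% to 15.5% of an IL-4 library, a difference in composition of the kind that TMM scaling corrects for. With library totals in its place, the median gene shifts by -0.17 on the log2 scale, and the calls over all genes move from 2663 higher and 2582 lower to 1704 higher and 4963 lower. IL-4 replicate 6 stood apart from the rest of its group, with a chi-square per degree of freedom of 46.2 and 37.0 against replicates 4 and 5, which differed from each other by 2.49. The control libraries differed by 3.77 to 16.9. Without IL-4 replicate 6, 3199 genes were higher and 3014 lower, and the members again gave 6 higher and 1 lower. All members' deposited counts are whole numbers in all 6 libraries, with no sign of reads shared out between them and other genes. Markers of macrophages were abundant in both groups although CD45-positive cells had been removed. All 18 were measured and 17 fell, the other being Cd68 (log2 fold change 0.38, edgeR adjusted p = 0.0572). With each library left out, 13 to 17 of these 18 markers were called lower. Their median log2 fold change was -0.97, and their summed level ran from 4658 to 6073 FPKM in control and from 1787 to 2436 FPKM in IL-4 libraries (FPKM, fragments per kilobase of transcript at a fixed depth, is a level per length). The most abundant were Lyz2, with means of 2739 and 776 FPKM, C1qa, with 488 and 189 FPKM, and C1qb, with 444 and 203 FPKM. Of the 10 AP markers, 7 rose and 2 fell, led in level by Col1a1, Col1a2 and Dcn, and their sum ran from 6273 to 6701 FPKM in control and from 7144 to 7907 FPKM in IL-4 libraries. The call of Col1a1 (0.33) is lost with library totals (0.16) and with limma on FPKM values. It is also lost without control replicate 2 or 3 or IL-4 replicate 5. That of Col1a2 (0.43) is lost with limma on FPKM values. Endothelial markers summed to 9.27 to 13.1 FPKM and lymphocyte markers to 0.30 to 1.25 FPKM over the 6 libraries, with Cd3e and Cd3g listed in none. Of the 6 endothelial markers, led by Tek, Cdh5 and Pecam1, 1 rose and 3 fell, and of the 2 lymphocyte markers tested 1 fell, with Cd4, Cd8a and Cd79a highest in level. Mature adipocyte markers were too low to test. The part that the fall of the macrophage markers has in the changes below was not tested.

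Dcstamp and Ocstamp encode DC-STAMP and OC-STAMP, related multi-pass membrane proteins without which osteoclasts and giant cells stay mononuclear. Dcstamp (Entrez 75766, chr15:39745930-39760938; all gene positions are in GRCm38, the assembly of mm10, from RefSeq) was near the limit of detection. Control replicates 1 to 3 had 3, 1 and 1 reads, and IL-4 replicates 4 to 6 had 7, 6 and 10. Every IL-4 library thus lay above every control library, at levels of at most 0.19 FPKM. Pooled over each group, 23 reads against 5 gave a ratio of 5.12 after scaling, with an exact 95% interval of 1.90 to 17.2 that covers counting error only. Without the filter on low counts, edgeR gave a log2 fold change of 2.27 with a Benjamini-Hochberg adjusted p of 0.0197.

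Ocstamp (Entrez 74614, chr2:165395450-165400394) was also nearly silent in control cultures, with 5, 3 and 2 reads. With IL-4 it had 64, 48 and 68 reads, so that the lowest IL-4 library held many times the reads of the highest control library. The log2 fold change was 4.27 ± 0.32 (SE, n = 3 and 3), a 19.3-fold rise, at an edgeR adjusted p of 2.48e-05. Its control reads were below the filter's minimum count of 10, so it entered the test through its IL-4 libraries alone. The pooled ratio was 20.03, with an exact 95% interval of 10.6 to 42.5. Even so, its level stayed low, at 1.17, 0.88 and 1.24 FPKM with IL-4 against 0.09, 0.06 and 0.04 FPKM in control. Within a library, the FPKM ratio of Ocstamp to Dcstamp was 1.5, 3 and 2 in control and 9, 8 and 6.53 in IL-4 cultures. The difference was 1.90 on the log2 scale, with p = 0.1 in the two-sided exact permutation test over libraries, the smallest p that 3 against 3 allows, and the control ratios rest on 1 to 5 reads a gene.

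Atp6v0d2 (Entrez 242341, chr4:19876838-19922566) encodes the d2 subunit of the membrane sector of the V-ATPase, the proton pump of lysosomes and of the osteoclast's resorbing border, and mice without it have fewer fused osteoclasts. Its normalized counts were 438, 375 and 423 in control and 4900.0, 5018 and 5774 with IL-4. The groups were far apart, with a 12.7-fold rise and a log2 fold change of 3.67 ± 0.10 (SE, n = 3 and 3) at an edgeR adjusted p of 1.47e-07. Over the 12 alternative settings the log2 fold change ran from 3.29 to 3.72.

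The other d subunit, Atp6v0d1, is the form found in most cells, and it was not called (log2 fold change 0.12, edgeR adjusted p = 0.258). Its normalized counts were 3395, 3499 and 3816 in control and 3686, 3721.5 and 4262 with IL-4, so that the groups overlapped. Per transcript length, Atp6v0d2 made up 7.54%, 6.35% and 6.54% of the summed FPKM of both d subunits in the control libraries. With IL-4 it made up 45.6%, 46.0% and 46.1%, and Atp6v0d2 went from a minor form to nearly the level of Atp6v0d1. The ratio within a library differed by 3.54 on the log2 scale between the groups (two-sided exact permutation test, p = 0.1, the smallest possible).

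The other subunits moved less. Of the 24 other V-ATPase subunit and accessory genes, 19 were tested, 6 rose and 1 fell by edgeR's test, with a median log2 fold change of 0.17. Largest among them were Atp6v0e2, an e subunit (1.55), Atp6v0a1, the a1 subunit of the same membrane sector (1.03), and Atp6v1b2, the common B subunit of the ATP-splitting sector (0.83), while Atp6v0a2 fell (-0.29). Tcirg1, which encodes the a3 subunit that osteoclasts use, had a log2 fold change of -0.12 (edgeR adjusted p = 0.249). With limma on FPKM values, only 3 were called higher and 4 lower. The calls of Atp6v1a (0.26) and Atp6ap1 (0.20) are also lost with library totals, while that of Atp6v1h (0.36) is kept there (0.19, edgeR adjusted p = 0.0495). That of Atp6v0a2 is lost without control replicate 1 or 2.

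**Figure D2:**
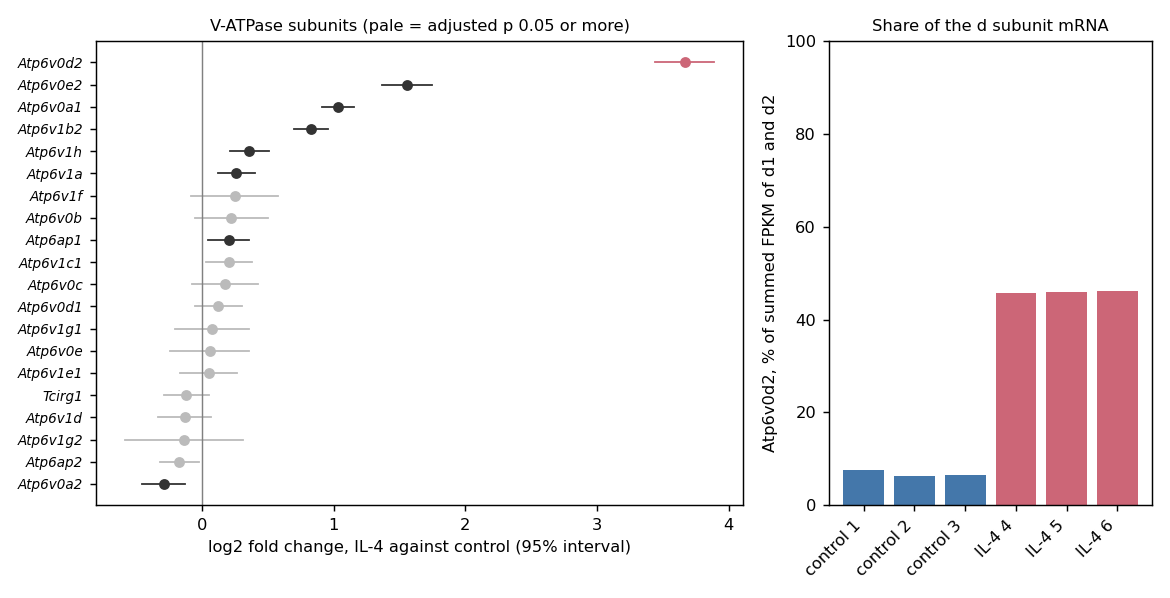
Left, edgeR log2 fold change with 95% interval of Atp6v0d2 (red) and the 19 other V-ATPase genes tested, pale where the adjusted p was 0.05 or more. Right, the share of Atp6v0d2 in the summed FPKM of both d subunits in each library, which is 6.35% to 7.54% in control and 45.6% to 46.1% in IL-4 cultures.

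Acp5 (Entrez 11433, chr9:22126727-22135746) encodes tartrate-resistant acid phosphatase, the enzyme whose stain marks osteoclasts and which some macrophages also carry. It had normalized counts of 110, 122 and 120 in control and 914, 1013 and 1164 with IL-4. All IL-4 libraries were well above the control libraries, with an 8.77-fold rise and a log2 fold change of 3.13 ± 0.11 (SE, n = 3 and 3) at an edgeR adjusted p of 6.31e-07. Its level went from 3.21 ± 0.16 to 25.4 ± 3.55 FPKM (mean ± SD, n = 3).

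RSEM, the authors' tool, gives each gene a mean transcript length weighted by the use of its transcripts, and for Acp5 this length moved too. It was 1415, 1413 and 1420.4 bases in control and 1394, 1394 and 1389.6 bases with IL-4. The control values were all longer, with an IL-4 minus control difference of -23.5 bases (two-sided exact permutation test, p = 0.1, the smallest possible). In RefSeq, the 3 Acp5 transcripts in the files start at 3 sites, with spliced lengths of 1411 bases for the outermost start, 1406 for the middle one and 1353 for the innermost. Lengths in the files can differ from these by the RefSeq version used, so the shares of the transcripts were not computed.

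Promoter sequences (RefSeq, GRCm38.p6, 250 bases before to 50 after each start) were at hand for 5 members with 8 starts, Acp5, Cd44, Cd47, Cd9 and Cd81. They were searched on both strands for TTC and GAA with 4 bases of any kind between them, the spacing of the palindrome that STAT6 prefers. This motif is in 6.95% of all 32851 promoters and in 2 of the 8 members' promoters, the innermost start of Acp5, 110 bases upstream, and Cd44, 211 bases upstream. Both matches are shown on the gene's strand, the minus strand in each case, because one belongs to a gene that rose and the other to a gene that was not called; capitals mark the motif.
Acp5, innermost start, chr9:22130691-22130716: atttccagTTCTGGGGAAgtccagtg
Cd44, chr2:102901859-102901884: tcctcagcTTCCTGGGAAaaccagtc
Neither the palindrome of other STAT proteins, with 3 bases between TTC and GAA (8.30% of all promoters), nor the AP-1 motif TGANTCA (7.81%) is in any of the 8. The PU.1 motif GAGGAAG (13.6%) is in 1, that of Cd44, 221 bases upstream on the opposite strand, beside its STAT6 match but not overlapping it. A match of letters is a description and not a binding site.

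Among the 13 osteoclast genes outside the set, 11 were tested, 4 rose and 2 fell, with a median log2 fold change of -0.02. Ctsk, the collagen-cutting cathepsin K of osteoclasts, rose by 1.91 on the log2 scale (edgeR adjusted p = 1.55e-06), from 117 to 390 FPKM, and Itgb3, the beta3 integrin of their attachment ring, rose by 1.97, from 6.16 to 21.4 FPKM. Plekhm1, a lysosome transport protein, had the next rise (0.31), a call lost in 8 of the 12 alternatives. Tnfrsf11a, which encodes the RANKL receptor RANK, fell by 1.20 on the log2 scale, and the alpha-v integrin Itgav fell by 0.49, a call lost without control replicate 1 or 2 or IL-4 replicate 5, with a value of -0.32, still called, without IL-4 replicate 6. The fourth rise, that of the kinase gene Src (0.22), was also lost in 8 of the 12 alternatives. Of the 6 genes that define osteoclasts, Calcr, the calcitonin receptor, was listed in no library, Oscar had at most 16.9 normalized counts, Mmp9 was not called (0.09), and Nfatc1 fell. The sum of these 6 markers ran from 129 to 138 FPKM in control and from 390 to 468 FPKM with IL-4, nearly all of it Ctsk.

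Cd200r1 (Entrez 57781, chr16:44765736-44794977) encodes the inhibitory receptor that binds CD200 on neighbouring cells and damps myeloid cells. Its normalized counts were 394, 457 and 521 in control and 569, 589 and 722 with IL-4. The groups did not overlap but lay close, with control replicate 3 nearest to the IL-4 libraries. The log2 fold change was 0.46 ± 0.13 (SE, n = 3 and 3) at an edgeR adjusted p of 0.0256. This call is lost with library totals (0.28, adjusted p = 0.127), without control replicate 1 (0.36, edgeR adjusted p = 0.0936) and without control replicate 2 (0.45, edgeR adjusted p = 0.0757).

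Around this receptor, its ligand gene Cd200 was lower, with 41.8, 47.0 and 46.0 normalized counts in control and 24.6, 16.0 and 19.6 with IL-4 (log2 fold change -1.16, edgeR adjusted p = 0.00303). Dok1 and Dok2, adaptors linked to CD200R1, were higher by 1.19 and 0.84 on the log2 scale. The related receptor gene Cd200r4 was higher by 0.68, a call lost without control replicate 1 or 2, and Cd200r2 and Cd200r3 had too few reads to test.

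Cd47 (Entrez 16423, chr16:49851328-49912503) encodes the ubiquitous surface protein that engages SIRPα on phagocytes, a contact that restrains engulfment and is used in macrophage fusion. It had normalized counts of 1394, 1540.2 and 1333 in control and 3031, 3002 and 2882 with IL-4. Every IL-4 library was about double the control libraries, with a log2 fold change of 1.06 ± 0.07 (SE, n = 3 and 3) at an edgeR adjusted p of 1.22e-05. Its receptor gene Sirpa (Entrez 19261, chr2:129591042-129632228) moved the other way. Sirpa had 13352, 13749 and 14930.1 normalized counts in control and 11264, 11507 and 10933 with IL-4. All IL-4 libraries were lower, with a log2 fold change of -0.32 ± 0.06 (SE, n = 3 and 3) at an edgeR adjusted p of 0.00524, and the value ran from -0.49 to -0.27 over the 12 alternatives, past the threshold in each.

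Among the partners of this pair, Ptpn6, which encodes SHP-1, a phosphatase recruited by SIRPα, fell from 1339, 1479 and 1705.5 normalized counts to 432, 506 and 554 (log2 fold change -1.60, edgeR adjusted p = 2.54e-05). Ptpn11, which encodes the related SHP-2, was not called (-0.11, edgeR adjusted p = 0.487). Thbs1, the CD47-binding matrix protein thrombospondin-1, was among the abundant transcripts and fell by 1.08 on the log2 scale.

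Cd44 (Entrez 12505, chr2:102811141-102901669) encodes the main hyaluronan receptor, which also binds osteopontin. It had 6589, 6762 and 6457 normalized counts in control and 6141, 6481 and 6276 with IL-4, so that the groups overlapped. The log2 fold change was -0.07, with a 95% interval of -0.19 to 0.06 (edgeR adjusted p = 0.371). With library totals, which move the median gene by -0.17, Cd44 was called lower (-0.24, edgeR adjusted p = 0.00766). Its mean transcript length was 4418 to 4427 bases in all 6 libraries and did not separate the groups (two-sided exact permutation test, p = 0.7). Of the 6 Cd44 transcripts in the files, the shortest in RefSeq has 9 exons and 4409 bases and the next 4706 bases, so the measured lengths lie nearest to the shortest form.

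The genes around CD44 changed more than the receptor. Spp1, which encodes osteopontin, fell from 53509, 53964 and 68800 normalized counts to 8939, 9325 and 11709.6, a log2 fold change of -2.56 (edgeR adjusted p = 5.03e-06). Has2, the hyaluronan synthase with the most reads here, fell from 525, 536 and 533 normalized counts to 184, 173 and 177 (-1.58, edgeR adjusted p = 2.23e-06), and Has1 and Has3 were low and not called. Of the linkers between CD44 and actin, Ezr (ezrin) was higher by 0.41, Rdx (radixin) was lower by a log2 fold change of -0.25, a call lost without control replicate 1 or 2 or IL-4 replicate 4, and Msn (moesin), which had the most reads of the 3, was not called (-0.14).

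The tetraspanins Cd9 and Cd81 restrain macrophage fusion, and mice lacking both form multinucleated giant cells. Cd81 (Entrez 12520, chr7:143052750-143067930) had normalized counts of 9662, 9650 and 10053 in control and 17348, 17504 and 19143 with IL-4. The groups were well apart, with a log2 fold change of 0.88 ± 0.06 (SE, n = 3 and 3) at an edgeR adjusted p of 2.05e-05. Cd9 (Entrez 12527, chr6:125460266-125494760) had 4273, 4175 and 4920.4 normalized counts in control and 4220, 4208 and 5395 with IL-4. Its groups overlapped, and control replicate 3 and IL-4 replicate 6 were the high library of each. The log2 fold change was 0.05, with a 95% interval of -0.21 to 0.31 (edgeR adjusted p = 0.774), and its sign turns with library totals (-0.12) and without IL-4 replicate 6 (-0.08).

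Relative to each other, the pair differed between the groups without overlap. The FPKM ratio of Cd9 to Cd81 was 0.524, 0.512 and 0.580 in control and 0.288, 0.285 and 0.334 with IL-4, a difference of -0.84 on the log2 scale (two-sided exact permutation test, p = 0.1, the smallest possible). The genes of their shared partners, the immunoglobulin proteins Ptgfrn and Igsf8, were higher by 0.62 and 0.38 on the log2 scale. Of 18 other tetraspanins, all tested, 8 rose and 4 fell, with a median log2 fold change of 0.18. Among those with a mean of at least 100 normalized counts, Cd53 of leukocytes (0.85), Cd151 (0.56) and the lysosomal Cd63 (0.50) had the largest rises and Cd37 of leukocytes (-0.65) and Tspan18 (-0.36) the falls. The call of Cd63 is lost with library totals (0.33), that of Cd37 without control replicate 3 or IL-4 replicate 5, and that of Tspan18 in 5 of the 6 fits that leave out a library.

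Of all 18 partners of the members, 16 were tested, 6 rose and 6 fell, with a median log2 fold change of -0.01.

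**Figure D3:**
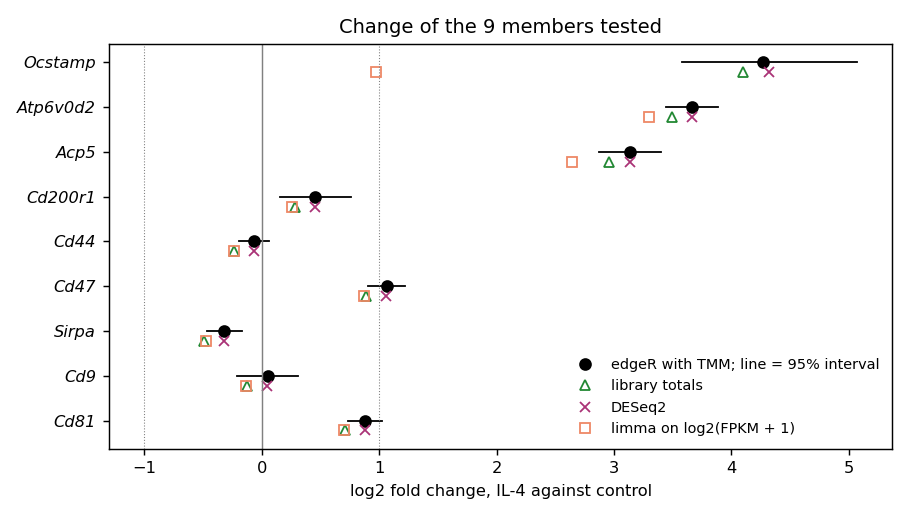
The log2 fold change of each tested member (black, with the 95% interval of edgeR's fit) and its value with library totals, DESeq2 and limma on log2(FPKM + 1). Values with library totals lie to the left of edgeR's for every gene shown, and Ocstamp falls to 0.98 on the log2(FPKM + 1) scale, where its low level is compressed.

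Per transcript length, the order of the members changed with IL-4. In control cultures Cd81 was highest (246 ± 7.79 FPKM, mean ± SD, n = 3), followed by Sirpa (134 ± 9.27 FPKM) and Cd9 (133 ± 13.2 FPKM), which overlapped, then Cd44, Cd47, Cd200r1, Atp6v0d2 and Acp5. Ocstamp and Dcstamp were lowest and overlapped. In IL-4 cultures the order was Cd81 (401 ± 28.8 FPKM), Cd9 (122 ± 20.1 FPKM), Sirpa (96.2 ± 1.40 FPKM), Atp6v0d2 (69.7 ± 7.53 FPKM), Cd47 (52.1 ± 0.58 FPKM) and Cd44 (47.2 ± 1.41 FPKM), then Acp5, Cd200r1, Ocstamp and Dcstamp, and no neighbours overlapped. Atp6v0d2 thus passed Cd200r1, Cd47 and Cd44, Acp5 passed Cd200r1, and Cd47 passed Cd44. Cd9 lay above Sirpa with IL-4, whereas these genes overlapped in control.

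**Figure D4:**
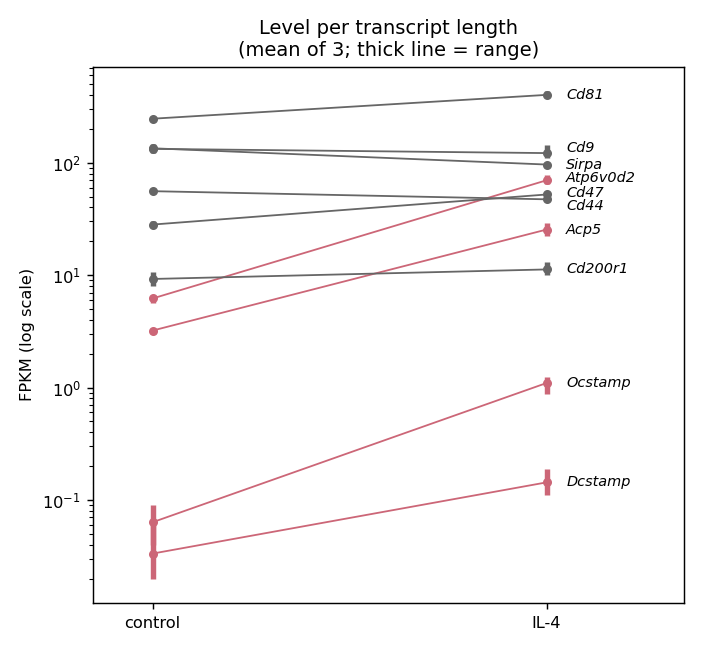
Level of each gene per transcript length (FPKM, log scale) in control and IL-4 cultures, as the mean of 3 libraries with a thick line over their range; the fusion proteins, Atp6v0d2 and Acp5 are in red. Atp6v0d2 rises from 6.19 to 69.7 FPKM and passes 3 other members, while Dcstamp stays lowest in both groups.

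Other genes of macrophage fusion moved in both directions. Of 24, all tested, 10 rose and 8 fell, with a median log2 fold change of 0.07, and 2 of them, Tyrobp and Itgam, are also among the macrophage markers. Cdh1, which encodes E-cadherin, an adhesion protein of IL-4-treated macrophages, had the largest rise, from 39.9, 33.6 and 31.0 normalized counts to 720.0, 787 and 740.3 (log2 fold change 4.42, edgeR adjusted p = 1.22e-07). The scavenger receptor Cd36 rose by 1.48 and the galectin Lgals3 by 1.27. The largest falls were those of Rac2, a GTPase of blood cells (-0.80), Sh3pxd2a, a podosome scaffold (-0.70), and P2rx7, an ATP-gated channel implicated in fusion (-0.66).

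Transcription factors that act in osteoclast and giant cell formation were split as well, with 5 of 12 higher and 3 lower and a median of 0.23. Of the MITF and TFE family, which drives Acp5 and lysosomal genes in osteoclasts, Mitf rose from 853, 926 and 884 normalized counts to 2371, 2276 and 2014 (log2 fold change 1.32, edgeR adjusted p = 6.98e-06). Tfec, an IL-4-responsive member of macrophages, rose from 153, 175 and 207 to 466, 461 and 514 normalized counts (1.43, edgeR adjusted p = 4.85e-05), and Tfe3 was not called (-0.12). Nfatc1, the master factor of osteoclasts downstream of RANK, was lower, with 1218, 1232 and 1144 normalized counts in control and 704, 714 and 607 with IL-4 (-0.83, edgeR adjusted p = 0.000111).

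Bhlhe40 rose by 1.54 and the repressor Bcl6 by 0.38. Irf8, which opposes osteoclast formation, was lower by a log2 fold change of -1.16, and Spi1, which encodes PU.1 and is also among the macrophage markers, by -0.43, a call lost without control replicate 3 or IL-4 replicate 4 or 5. The AP-1 genes Fos (0.12) and Jdp2 (-0.01) were not called, and neither was Prdm1, which had at most 31.0 normalized counts.

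**Figure D5:**
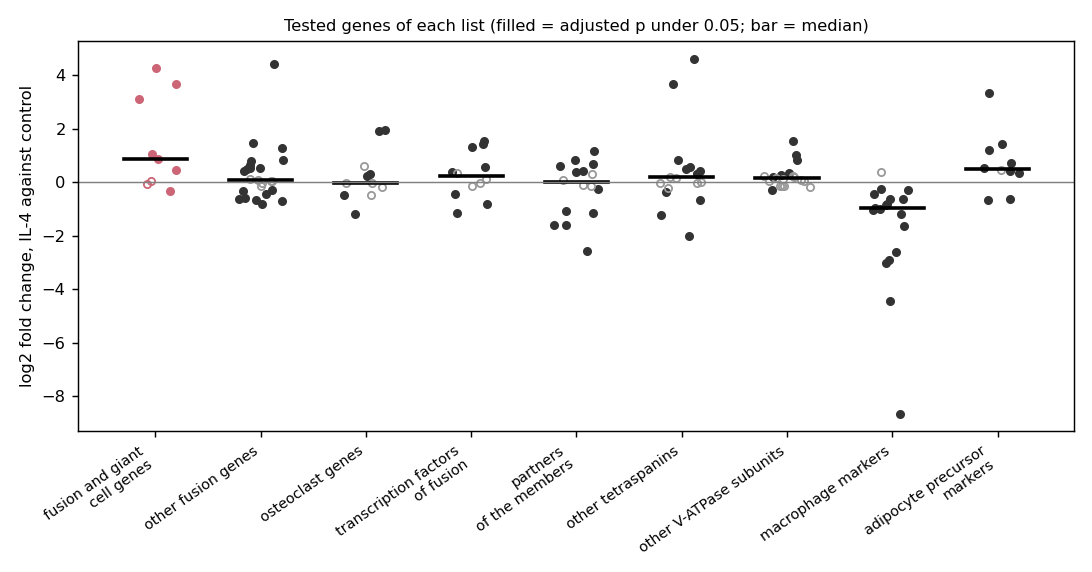
The log2 fold change of each tested gene in the set (red) and in 8 lists, filled where edgeR's adjusted p was under 0.05, with a bar at the median. The macrophage markers lie below 0 except Cd68, the members lie mostly above it, and the other lists spread to both sides.

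Gene pattern likeness was measured by Pearson's r of log2 normalized counts over the 6 libraries, against Ocstamp, since Dcstamp was not tested. Among 11419 genes with a mean of at least 100 normalized counts, the closest were Gbp6 (0.99995), Hr (0.9992), Retsat (0.9987), Optn (0.9985) and Slc16a1 (0.9983). These values are a description over 6 libraries that fall into 2 groups, so they mainly record a difference between the groups in the same direction. Pearson's r takes no account of the size of a change, and all 5 changed far less than Ocstamp. Gbp6 had 345, 321 and 299 normalized counts in control and 570, 537 and 574 with IL-4. Retsat had 433, 422 and 409 in control and 515, 510 and 515 with IL-4. In all 5 genes, as in Ocstamp, IL-4 replicate 5 was the lowest of its group, and control replicate 1 was the highest and control replicate 3 the lowest of theirs. In the control group this order rests on 5, 3 and 2 reads in Ocstamp. Picking genes by the highest r over these same libraries favours such a shared order, so it is not a separate result.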

How the data were processed

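The members and gene lists were chosen with earlier results of these data known. Reads from poly-A RNA (BGISEQ-500) were filtered with SOAPnuke, and the authors computed gene levels with Bowtie2 and RSEM. Per the labels, HISAT, StringTie and mm10 were also used. The deposited expected counts are not normalized, and the deposited FPKM were scaled by the authors for transcript length and depth. Genes absent from a library's table were taken as 0, and 1 row without a gene name, at most 0.00022% of a library, was left out. The 4 small RNA libraries were not used.

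Expected counts were rounded, filtered (filterByExpr, minimum count 10, minimum total 15), scaled with TMM and tested with edgeR 4.0.16 under R 4.3.3. Normalized counts are counts scaled to the mean library. Replicates differed by more than sampling noise, with a common biological coefficient of variation of 0.0939. The script was tested on simulated data. Alternatives were DESeq2 1.42.0, upper-quartile scaling, library totals, no filter, FPKM on the log2 scale in limma 3.58.1 (pseudocount 1 or 0.1), and each library left out. Genes named were the members, Atp6v0d1, their partners, the transcription factors, in each other list the 3 largest called rises and falls with a mean of at least 100 normalized counts, the 3 most abundant markers of each type, and the 5 genes most like Ocstamp. Tcirg1, Calcr, Oscar, Mmp9, Cd68, Tspan8, Tspan10, Tspan15 and Tspan33 were added after their values were seen. Some genes of the lists are counted but not reported by name here. Intervals of pooled reads cover counting error only. Other steps used Python 3.11.15, pandas 2.3.3, scipy 1.17.1 and matplotlib 3.10.9.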

Additional observations from a re-analysis of the deposited data

How the results depend on the processing

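The calls of Ocstamp, Atp6v0d2, Acp5, Cd47, Cd81 and Sirpa and their directions held in all 12 alternatives. Cd200r1 was no longer called with library totals (0.28) or limma on log2(FPKM + 1) (0.26) or log2(FPKM + 0.1) (0.28), and its log2 fold change ran from 0.35 to 0.56 with each library left out. Cd44 was called lower in the same 3 settings (-0.24, -0.24 and -0.24). Cd9 turned sign in them (-0.12, -0.13 and -0.13) and ran from -0.075, without IL-4 replicate 6, to 0.12 with each library left out, never past the threshold. In these settings 2 members were lower. Beyond a log2 fold change of 1, 3 were higher with library totals, 2 on the log2(FPKM + 1) scale and 3 on the log2(FPKM + 0.1) scale. Cd47 stayed called but fell short of that mark in each (0.89, 0.87 and 0.89). The 3 settings share that libraries are scaled by depth with no factor for composition, and they shift the median gene by -0.17, -0.13 and -0.17. Upper-quartile scaling and DESeq2, which use such a factor in place of TMM, put the median gene at -0.02 and 0.0014.

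In each of these 3 settings 2 osteoclast genes were higher and 5 lower, and 5 other tetraspanins were higher. With library totals 4 other V-ATPase genes were lower, and with limma on either scale 3 were higher and 4 lower; with no filter 2 were lower. One macrophage marker more, Cd68, was higher with DESeq2 (1) and with no filter (1). Over all genes, 1704, 1697 and 1694 were higher and 4963, 4916 and 4904 lower with library totals, log2(FPKM + 1) and log2(FPKM + 0.1), and on the log2(FPKM + 1) scale 348 were higher and 352 lower beyond a log2 fold change of 1. With each library left out, 2 to 4 osteoclast genes were higher (2 when any library but IL-4 replicate 6 was left out) and 1 to 3 lower (1 without control replicate 1 or 2 or IL-4 replicate 5), 2 to 4 other tetraspanins were lower (2 without control replicate 3 or IL-4 replicate 5), 0 to 3 other V-ATPase genes were lower (0 without control replicate 1, 2 without IL-4 replicate 5 and 3 without IL-4 replicate 6), and 0 to 1 macrophage markers were higher (1 without control replicate 3 or IL-4 replicate 4). In the same fits 13 to 17 macrophage markers were lower, with 13 without control replicate 3 or IL-4 replicate 4 and 14 without IL-4 replicate 5. The cause of each of these shifts was not tested.

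The ratios of Atp6v0d2 to Atp6v0d1, Cd9 to Cd81 and Ocstamp to Dcstamp kept their direction and size with expected counts and with each library left out. With 3 libraries a group, the exact permutation test cannot go below p = 0.1. Depth limits Dcstamp, whose 5 control reads leave its ratio anywhere from 1.90 to 17.2. No paired analysis was possible because the labels number the control mRNA libraries 1 to 3 and the IL-4 mRNA libraries 4 to 6, and the small RNA libraries, which share numbers, were not compared.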

Other observations

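Outside the rule for named genes, and chosen after their values were seen, 2 tetraspanins that are low in these cultures separated the groups. Tspan33 had 12.4, 10.6 and 8.44 normalized counts in control and 122, 128 and 152 with IL-4, with a log2 fold change of 3.67 (edgeR adjusted p = 4.3e-06). Tspan10 had 1, 2 and 0 reads in control and 21, 26 and 27 reads with IL-4.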
